A study of Mus musculus with 12 samples.

Results

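The genes described here are 32 markers of mesothelium and of the connective tissue stroma next to it, taken by gene symbol from a list of names with no threshold on their values. The list was chosen with earlier results of these data known. All 32 were found in the table of 53465 genes. They were measured in RNA of peritoneal macrophages, the phagocytes of the abdominal cavity, taken at postnatal week 10 from mice of the strain C57BL/6. There were 4 groups with 3 libraries each. In the first, the genotype label was Lyz2Cre-BHLHE40-Fl and the treatment control, and in the second the label was Lyz2Cre and the treatment control. In the others, cells of either label had received lipopolysaccharide (LPS), a Gram-negative bacterial membrane component, for which the sources used here give no dose or time. Both labels include the Cre recombinase of the lysozyme 2 gene, a driver for macrophages, monocytes and granulocytes that is not known as one for mesothelium. BHLHE40, the gene named in the label with Fl, encodes a helix-loop-helix transcriptional regulator, and the series is about its part in the macrophage inflammatory response.

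The mesothelium is the single layer of flat cells that lines the peritoneal, pleural and pericardial cavities and covers their organs. It is of mesodermal origin, yet has tight junctions, apical polarity and keratins like an epithelium, and it also expresses mesenchymal genes. In mice, mesothelial and stromal cells that express Wt1 make retinoic acid, which maintains the transcription factor Gata6 in resident peritoneal macrophages.

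Gene-assigned reads numbered 20489417 to 29354869 per library, as recovered from the deposited values. Those values are reads divided by 1 factor per library, so that 1 read was worth 0.725 to 1.56. They are given below as deposited, with means ± SD over 3 libraries per group. Whether replicates came from separate animals or cultures is not in the labels, and p-values thus reflect the spread among these libraries alone, which may be technical. The targeted gene's RNA was not reduced in libraries labelled Lyz2Cre-BHLHE40-Fl: Bhlhe40 averaged 7893 ± 239 in these controls and 4976 ± 295 in Lyz2Cre controls, a difference of 0.67 ± 0.08 in log2 (SE, limma adjusted p = 6.32e-06). With LPS it averaged 2232 ± 244 in BHLHE40-Fl-labelled cells and 2467 ± 226 in Lyz2Cre cells. Loss of single exons would not be visible in a gene-level value, and all directions between genotypes rely on the label alone.

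Of the 32 genes, 20 have a promoter window in the RefSeq table used here (GRCm38.p6), running from 250 bases before to 50 bases after the annotated start. Upk1b, Msln, Plxna4, Krt19, Wt1, Tbx2, Fgf1, Rarres2, Sulf1, Dcn, Mgp and Lum have none there. Each window was searched on both strands for CACGTG (the E-box that BHLHE40 binds), CATTCC (the core site of TEAD factors), TATAAA (the TATA box) and GNGTGGGNG (the site of the WT1 and EGR zinc fingers). CACGTG lies in windows of 2 of the 20 genes, Fbln1 and Pdpn, and in 13.0% of their 23 windows against 7.15% of all 32851 windows. The Fbln1 windows overlap and share the same CACGTG, which is thus counted in both. CATTCC lies in those of Cldn15, Gpm6a, Igfbp5, Lrrn4 and Upk3b, or 21.7% of the 23 windows against 14.7% of all. GNGTGGGNG lies in those of 7 genes, or 30.4% against 14.3%, and TATAAA in those of Gpm6a, Igfbp6 and Krt8, or 13.0% against 13.6%. A match is a run of letters, not evidence of binding. The 5 windows that follow show genes with different patterns in these libraries, chosen after their values were seen: Upk3b (chr5:136038246-136038545, plus strand) and Lrrn4 (chr2:132880813-132881112, minus strand), which were at or near 0 in Lyz2Cre libraries, Pdpn (chr4:143299515-143299814, minus strand), which was lower in BHLHE40-Fl-labelled than in Lyz2Cre libraries, and the keratin partners Krt8 (chr15:102004293-102004592, minus strand) and Krt18 (chr15:102027966-102028265, plus strand), which were higher in BHLHE40-Fl-labelled libraries. Capitals mark the motifs found, and the Krt18 window holds none of the 4.
Upk3b: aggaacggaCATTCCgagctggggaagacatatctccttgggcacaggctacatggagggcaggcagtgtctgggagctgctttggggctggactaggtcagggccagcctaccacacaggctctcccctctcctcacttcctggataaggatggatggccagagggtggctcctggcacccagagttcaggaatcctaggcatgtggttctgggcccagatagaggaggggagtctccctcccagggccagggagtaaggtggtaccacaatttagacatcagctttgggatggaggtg
Lrrn4: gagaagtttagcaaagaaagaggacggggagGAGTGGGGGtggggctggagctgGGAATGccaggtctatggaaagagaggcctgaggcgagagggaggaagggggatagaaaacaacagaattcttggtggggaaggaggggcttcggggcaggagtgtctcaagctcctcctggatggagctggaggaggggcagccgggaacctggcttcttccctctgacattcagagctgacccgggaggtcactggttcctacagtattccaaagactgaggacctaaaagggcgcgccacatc
Pdpn: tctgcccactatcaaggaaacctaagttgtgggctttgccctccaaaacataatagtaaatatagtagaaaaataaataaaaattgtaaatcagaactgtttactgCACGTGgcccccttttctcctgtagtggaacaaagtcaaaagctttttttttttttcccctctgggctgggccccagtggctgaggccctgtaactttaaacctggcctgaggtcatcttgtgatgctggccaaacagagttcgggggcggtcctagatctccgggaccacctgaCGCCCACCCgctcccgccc
Krt8: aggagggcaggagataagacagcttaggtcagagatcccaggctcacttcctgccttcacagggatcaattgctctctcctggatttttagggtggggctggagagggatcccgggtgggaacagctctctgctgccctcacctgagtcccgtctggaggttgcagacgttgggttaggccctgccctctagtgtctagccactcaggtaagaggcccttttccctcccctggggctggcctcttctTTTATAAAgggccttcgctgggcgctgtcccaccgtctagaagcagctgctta
Krt18: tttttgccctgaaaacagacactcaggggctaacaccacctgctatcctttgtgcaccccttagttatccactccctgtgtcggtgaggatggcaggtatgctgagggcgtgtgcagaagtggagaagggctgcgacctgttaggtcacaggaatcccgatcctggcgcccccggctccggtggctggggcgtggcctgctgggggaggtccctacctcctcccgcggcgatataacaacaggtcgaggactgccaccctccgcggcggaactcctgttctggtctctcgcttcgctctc

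Without LPS, nearly all of the markers stood higher in libraries labelled Lyz2Cre-BHLHE40-Fl. Of the 32 genes, 30 were called higher and 2, Pdpn and Rarres2, lower, at a limma adjusted p below 0.05. Over all 20419 genes tested, 15.0% were called higher and 16.6% lower in this comparison. The median log2 difference of the 32 was 4.48, and that of all tested genes 0.00. Differences were taken between means of log2(value + 1), so those of low genes are understated. All 32 passed the filter (3 or more libraries with a value of 1 or above), but 15 of them passed only through BHLHE40-Fl-labelled libraries. Those 15 had to differ, and all 32 were chosen with earlier results of these data known. The counts thus describe these libraries and lend no support of their own. Leaving out Pdpn, the most abundant, the markers summed to 6749.6, 7546 and 8151 in the 3 BHLHE40-Fl-labelled controls, against 894, 931 and 889.9 in the 3 Lyz2Cre controls. As a share of reads this was 0.0373% ± 0.00389 against 0.00399% ± 8.79e-05. For none of the 32 genes did the controls of the labels overlap, where 20.4% of all tested genes lay wholly higher and 20.9% wholly lower. In bulk RNA, more cells of a type and more RNA per cell cannot be told apart.

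**Figure D1:**
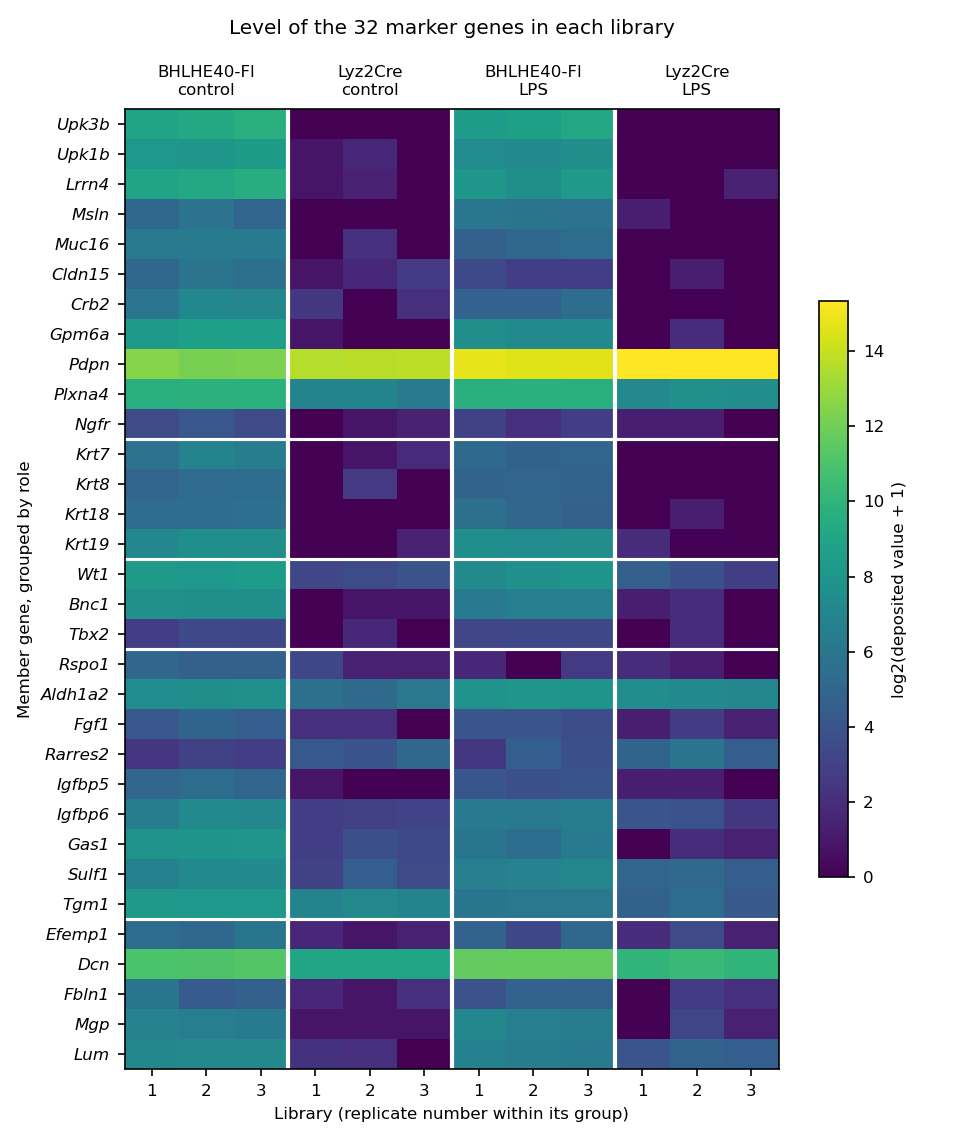
Level of each of the 32 marker genes (rows, grouped by role) in each of the 12 libraries (columns), as log2(deposited value + 1). Most rows are brighter in both BHLHE40-Fl-labelled groups than in both Lyz2Cre groups, where they are near 0. Pdpn is brightest in the Lyz2Cre libraries with LPS.

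Among the membrane and junction genes, 10 of 11 were called higher in BHLHE40-Fl-labelled controls. Upk3b (ENSMUSG00000042985), a uroplakin used as a marker of mesothelium, had 495, 595 and 796 in the 3 BHLHE40-Fl-labelled controls and 0 in each of the 3 Lyz2Cre controls. These are 2533 reads against 0, at least 780.1-fold when 3 reads over the group are taken as the floor, and a difference of 9.27 ± 0.31 in log2 (SE, limma adjusted p = 1.24e-13). No Lyz2Cre library of either treatment held a read of it. Lrrn4, a leucine-rich repeat membrane protein of mesothelium, had 486, 606 and 733 in BHLHE40-Fl-labelled and 0.8, 1.6 and 0 in Lyz2Cre controls. That ratio of 759.9 rests on 3 reads in Lyz2Cre controls, which gives a 95% counting interval of 258 to 3666. Gpm6a, a tetraspan membrane glycoprotein, had 296, 400.3 and 385 in BHLHE40-Fl-labelled and 0.8, 0 and 0 in Lyz2Cre controls, the Lyz2Cre value being 1 read. Each BHLHE40-Fl-labelled control lay far above every Lyz2Cre control for these genes. Upk1b, a tetraspanin of the uroplakin family, had 287, 270.0 and 327 in BHLHE40-Fl-labelled controls, against 0.8, 2.4 and 0 in Lyz2Cre controls. Muc16, the membrane mucin known as CA125, had 71.2, 78.9 and 82.6 in BHLHE40-Fl-labelled and 0, 3.2 and 0 in Lyz2Cre controls. Its binding partner Msln, mesothelin, had 34.9, 56.1 and 30.4 against 0 in all 3 Lyz2Cre controls, at least 50.2-fold. The log2 differences of these 5 genes ran from 5.32 for Msln to 8.49 for Lrrn4, with limma adjusted p-values no higher than 1.28e-07.

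The remaining genes of this group were less far apart. Crb2, an apical polarity protein, averaged 108 ± 40.0 in BHLHE40-Fl-labelled controls and 2.63 ± 2.37 in Lyz2Cre controls. Cldn15, a tight junction claudin, averaged 47.8 ± 11.5 in BHLHE40-Fl-labelled and 2.73 ± 2.12 in Lyz2Cre controls, a difference of 3.85 ± 0.53 in log2 (SE, limma adjusted p = 1.48e-05). Plxna4, a semaphorin receptor, was present on both sides, at 871 ± 39.4 in BHLHE40-Fl-labelled and 104 ± 20.2 in Lyz2Cre controls, or 8.34-fold higher (limma adjusted p = 1.16e-11). Ngfr, the p75 neurotrophin receptor, was low throughout and averaged 12.3 ± 3.72 in BHLHE40-Fl-labelled and 0.833 ± 0.850 in Lyz2Cre controls (limma adjusted p = 0.000345). Pdpn (podoplanin, a mucin-type membrane glycoprotein of mesothelium, lymphatic endothelium and activated macrophages) ran the other way. It ranged over 4611 to 5842 in BHLHE40-Fl-labelled controls and 12334 to 14423 in Lyz2Cre controls, 2.58-fold lower, with a difference of -1.37 ± 0.09 in log2 (SE, limma adjusted p = 6.71e-10). Because Pdpn outweighs the other members, the sum of all 32 took 0.0629% of the reads in BHLHE40-Fl-labelled controls and 0.0624% in Lyz2Cre controls.

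All 4 keratin genes of simple epithelia were called higher. Krt19 had 139, 199 and 188 in BHLHE40-Fl-labelled controls and 0, 0 and 1.7 in Lyz2Cre controls, a difference of 6.97 ± 0.51 in log2 (SE, limma adjusted p = 5.04e-09). Krt7 had 51.6, 114 and 84.1 in BHLHE40-Fl-labelled and 0, 0.8 and 2.5 in Lyz2Cre controls. Krt8, whose promoter window printed above matches TATAAA at the annotated start, had 31.3, 39.5 and 42.0 in BHLHE40-Fl-labelled and 0, 4.9 and 0 in Lyz2Cre controls. Krt18, the filament partner of Krt8, had 44.3, 43.4 and 46.4 against 0 in each Lyz2Cre control, at least 55.5-fold. Together the keratins summed to 266, 396 and 361 in BHLHE40-Fl-labelled controls and to 0, 5.7 and 4.2 in Lyz2Cre controls, so 1 Lyz2Cre control held no keratin read of this list. The limma adjusted p-values of the 4 lay between 5.04e-09 and 8.97e-06.

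The 3 transcription factors were also called higher. Wt1, which is needed for mesothelium and its mesenchymal progeny to form in the embryo, had 300.3, 291 and 333 in BHLHE40-Fl-labelled controls and 8.5, 10.5 and 14.2 in Lyz2Cre controls. Its log2 difference was 4.70 ± 0.34 (SE, limma adjusted p = 4.44e-09), and unlike the uroplakins it was detected in every Lyz2Cre control, from 41 reads in all. Bnc1, the zinc finger protein basonuclin 1, had 209, 201 and 199 in BHLHE40-Fl-labelled and 0, 0.8 and 0.8 in Lyz2Cre controls, a difference of 7.11 ± 0.44 in log2 (SE, limma adjusted p = 6.76e-10). Its 3 BHLHE40-Fl-labelled controls had the smallest relative spread of any member, with a coefficient of variation of 2.63%. Tbx2, a T-box repressor, was near the limit of detection, with 5.8, 9.5 and 8.7 in BHLHE40-Fl-labelled and 0, 2.4 and 0 in Lyz2Cre controls (limma adjusted p = 0.00317).

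Of the 9 signalling and secreted regulators, 8 were called higher and Rarres2 lower. Igfbp5, a binding protein of insulin-like growth factors, had 32, 41.8 and 31.2 in BHLHE40-Fl-labelled controls and 0.8, 0 and 0 in Lyz2Cre controls. Its relative Igfbp6 had 85.1, 159.5 and 141 in BHLHE40-Fl-labelled and 6.2, 6.5 and 7.5 in Lyz2Cre controls. Gas1, a membrane co-receptor for hedgehog ligands, had 220.3, 242 and 254 in BHLHE40-Fl-labelled and 6.2, 12.2 and 10.0 in Lyz2Cre controls. For these 3 the groups were separated by a wide gap, with log2 differences of 4.87, 4.02 and 4.56 (limma adjusted p at most 2.73e-07). Sulf1, an extracellular heparan sulfate endosulfatase, had 107, 156 and 151 in BHLHE40-Fl-labelled and 6.9, 22.7 and 10.9 in Lyz2Cre controls. Fgf1, a fibroblast growth factor, had 16.7, 29.2 and 22.5 in BHLHE40-Fl-labelled and 3.1, 3.2 and 0 in Lyz2Cre controls. Rspo1, an R-spondin that enhances Wnt signalling, had 32, 24.5 and 25.4 in BHLHE40-Fl-labelled and 8.5, 1.6 and 1.7 in Lyz2Cre controls. All 3 were higher in each BHLHE40-Fl-labelled control. Rspo1 differed by 2.79 ± 0.69 (SE, limma adjusted p = 0.0043), a call that was lost with a pseudocount of 0.1 (limma adjusted p = 0.12). Aldh1a2, the retinaldehyde dehydrogenase that makes retinoic acid, averaged 188 ± 13.5 in BHLHE40-Fl-labelled and 51.2 ± 14.6 in Lyz2Cre controls, or 3.68-fold higher (limma adjusted p = 2.1e-07). Tgm1, a protein cross-linking transglutaminase, differed least among the 30, at 290.0 ± 10.2 in BHLHE40-Fl-labelled and 126 ± 19.2 in Lyz2Cre controls with a difference of 1.20 ± 0.23 in log2 (SE, limma adjusted p = 0.000554). Rarres2, the chemoattractant chemerin, averaged 5.77 ± 1.35 in BHLHE40-Fl-labelled and 22.2 ± 10.6 in Lyz2Cre controls, a difference of -1.70 ± 0.51 in log2 (SE, limma adjusted p = 0.0152). That call was lost without Lyz2Cre control replicate 3 (limma adjusted p = 0.0784) and without BHLHE40-Fl-labelled control replicate 1 (limma adjusted p = 0.0518). Rarres2 also shares 892 bp, or 33.6% of its exons, with Lrrc61 on the opposite strand (352 in BHLHE40-Fl-labelled and 269.9 in Lyz2Cre controls), and the strand setting of the counting is not given in the sources used here. Gas1 shares 589 bp with the opposite-strand gene Gm48488 (0.733 in BHLHE40-Fl-labelled and 0.567 in Lyz2Cre controls) and Crb2 shares 113 bp, or 1.69% of its exons, with the opposite-strand gene Dennd1a (1379 in BHLHE40-Fl-labelled and 1273 in Lyz2Cre controls), while the opposite-strand partners of Plxna4, Bnc1 and Tgm1 were at 0.

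The 5 matrix genes were called higher. Decorin (Dcn), a small leucine-rich proteoglycan that binds collagen, had 2036, 2100.0 and 2401 in BHLHE40-Fl-labelled controls and 542, 531 and 526 in Lyz2Cre controls. It was thus well expressed in both, at 4.09-fold, with a difference of 2.03 ± 0.09 in log2 (SE, limma adjusted p = 3.57e-12). Lumican (Lum), of the same family, had 139.6, 147 and 149 in BHLHE40-Fl-labelled and 3.8, 3.2 and 0 in Lyz2Cre controls. Matrix Gla protein (Mgp), an inhibitor of calcification, had 109, 92.4 and 76.8 in BHLHE40-Fl-labelled and 0.8, 0.8 and 0.8 in Lyz2Cre controls. Both were at most a few reads in each Lyz2Cre control, and their log2 differences were 5.75 and 5.69. The fibulins Efemp1 and Fbln1 had lower values. Efemp1 had 42.2, 35.5 and 60.9 in BHLHE40-Fl-labelled and 2.3, 0.8 and 1.7 in Lyz2Cre controls. Fbln1 had 61.1, 19.7 and 25.4 in BHLHE40-Fl-labelled and 2.3, 0.8 and 3.3 in Lyz2Cre controls and the widest relative spread of the members in BHLHE40-Fl-labelled controls, with a coefficient of variation of 63.4%. The limma adjusted p-values of these 4 lay between 1.49e-08 for Lum and 0.000342 for Fbln1.

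The members therefore differed widely in how much of their level the Lyz2Cre controls shared. Taking the BHLHE40-Fl-labelled mean of each gene as 100%, Upk3b, Msln and Krt18 stood at 0% in Lyz2Cre controls, and Gpm6a, Lrrn4, Bnc1, Krt19, Upk1b, Igfbp5 and Mgp below 1%. Wt1 stood at 3.59%, Plxna4 at 12%, Dcn at 24.5%, Aldh1a2 at 27.2% and Tgm1 at 43.5%. Pdpn and Rarres2 stood at 258% and 385%. Per kilobase of exons, the order of levels in BHLHE40-Fl-labelled controls began with Pdpn at a mean of 2832, then Dcn at 373 and Upk3b at 178. Upk3b was not separated from Lrrn4 and Upk1b, whose libraries ranged over 131 to 197 and 129 to 156 per kilobase against 140 to 225 for Upk3b. Tbx2 and Rarres2 were lowest, at 2.21 and 2.17 per kilobase. The median coefficient of variation over the 32 genes was 17.1% among the BHLHE40-Fl-labelled controls. Replicate 1 of that group was the lowest library for 19 of the 32 genes.

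**Figure D2:**
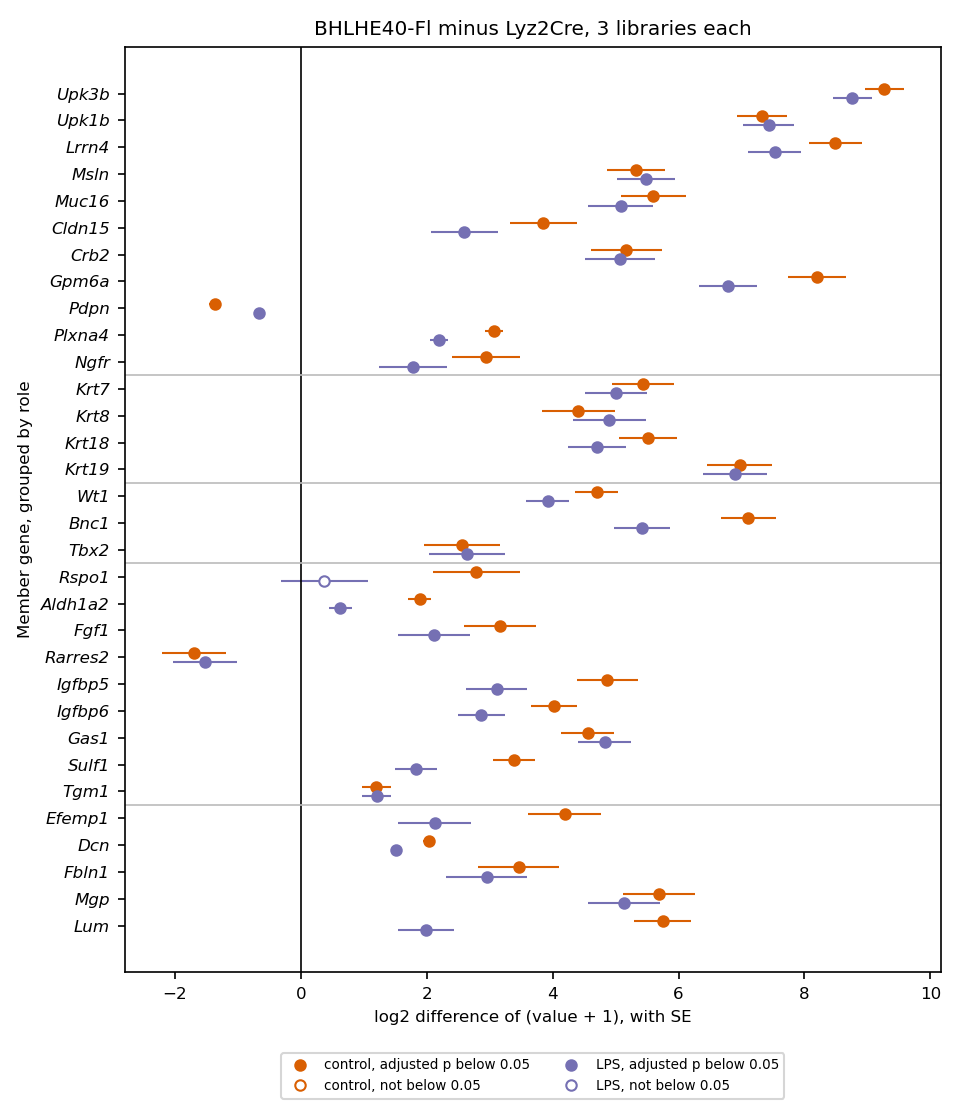
Difference between BHLHE40-Fl-labelled and Lyz2Cre libraries for each of the 32 genes, as log2 difference of (value + 1) with its SE, in controls and with LPS (3 libraries per group). In both treatments the points of Pdpn and Rarres2 lie left of 0, and those of the other 30 genes lie right of it, with Rspo1 with LPS at 0.37 not called.

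With LPS the separation by label was narrower but ran the same way. Of the 32 genes, 29 were called higher in BHLHE40-Fl-labelled libraries and Pdpn and Rarres2 lower, where 17.7% and 19.8% of all tested genes were called. The median log2 difference was 3.03, against -0.02 over all tested genes. Upk3b had 339, 419 and 574 in BHLHE40-Fl-labelled libraries with LPS and 0 in each Lyz2Cre library with LPS, at least 308-fold. Upk1b, Muc16, Crb2, Krt7 and Krt8 were at 0 in the 3 Lyz2Cre libraries as well. In BHLHE40-Fl-labelled cells with LPS, these 5 averaged 171, 33.6, 33.6, 31.6 and 28.8. Krt19 averaged 186 ± 10.3 in BHLHE40-Fl-labelled and 0.933 ± 1.62 in Lyz2Cre libraries with LPS, and Wt1 204 ± 42.6 in BHLHE40-Fl-labelled and 14.1 ± 8.82 in Lyz2Cre libraries with LPS. Dcn averaged 3206 ± 91.1 in BHLHE40-Fl-labelled and 1124 ± 144 in Lyz2Cre libraries with LPS, 2.85-fold higher (limma adjusted p = 2.53e-10). The sum without Pdpn was 6434, 6633 and 6835 in BHLHE40-Fl-labelled cells and 1511, 1898 and 1490.2 in Lyz2Cre cells. Pdpn averaged 25829 ± 1609 in BHLHE40-Fl-labelled and 40898 ± 80.4 in Lyz2Cre libraries with LPS, 1.58-fold lower, with a difference of -0.66 ± 0.09 in log2 (SE, limma adjusted p = 7.25e-06). Rspo1 was the gene not called, with 2.3, 0 and 5.0 in BHLHE40-Fl-labelled cells against 2.8, 1.4 and 0 in Lyz2Cre cells and a difference of 0.37 ± 0.69 in log2 (SE, limma adjusted p = 0.721). Rarres2 differed by -1.52 (limma adjusted p = 0.0255), a call lost without BHLHE40-Fl-labelled LPS replicate 1 (limma adjusted p = 0.139) or Lyz2Cre LPS replicate 2 (limma adjusted p = 0.131). The call of Aldh1a2, 0.63, was lost without BHLHE40-Fl-labelled LPS replicate 2 (limma adjusted p = 0.0516) or Lyz2Cre LPS replicate 3 (limma adjusted p = 0.06). That of Ngfr, 1.79, was lost without BHLHE40-Fl-labelled LPS replicate 1 (limma adjusted p = 0.0517) or Lyz2Cre LPS replicate 3 (limma adjusted p = 0.0764).

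**Figure D3:**
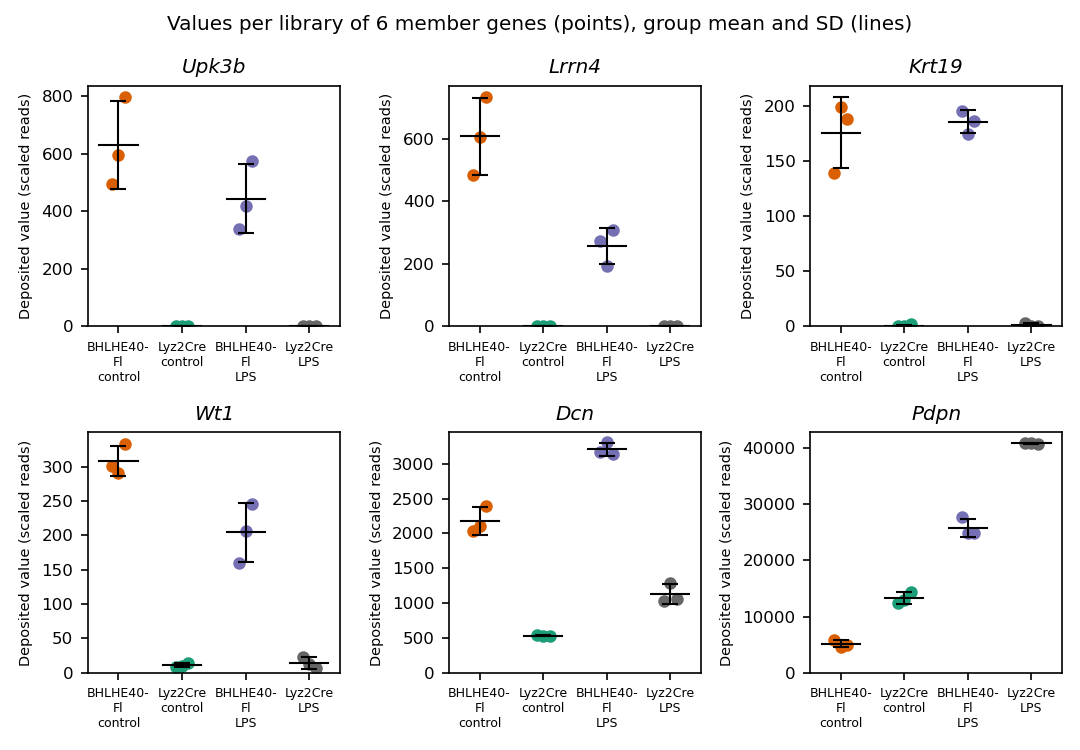
Deposited value (scaled reads) of 6 marker genes in each library, with the mean and SD of each group of 3. Upk3b, Lrrn4, Krt19 and Wt1 lie at or near 0 in both Lyz2Cre groups, Dcn is present in all groups, and Pdpn is lower in BHLHE40-Fl-labelled than in Lyz2Cre libraries under each treatment.

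Within the BHLHE40-Fl-labelled libraries, several mesothelial genes were lower with LPS, and Pdpn and Dcn were higher. In the comparison of LPS with control, 2 members were called higher and 9 lower, where 24.9% and 25.6% of all tested genes were. The share of members called lower was thus near that of all genes, and the share called higher was below it. Without BHLHE40-Fl-labelled control replicate 2 or 3, or LPS replicate 2, 4 were called lower. The scale bears on these counts. The deposited totals averaged 30832914 with LPS and 20073802 in controls, and with library totals made equal the median change over all genes was -0.56, against -0.05 as deposited. With equal totals 1 member was called higher and 20 lower, and over all genes 2616 were higher and 9560 lower, against 5086 and 5234 as deposited. Pdpn averaged 25829 ± 1609 with LPS and 5146 ± 631 in controls, 5.02-fold higher, with a log2 change of 2.33 ± 0.09 (SE, limma adjusted p = 9.57e-14). Dcn had 3168, 3310.4 and 3141 with LPS and 2036, 2100.0 and 2401 in controls, a log2 change of 0.56 ± 0.09 (SE, limma adjusted p = 2.66e-05) that turned to -0.06 with equal totals.

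The genes called lower with LPS had several roles. Rspo1 had 2.3, 0 and 5.0 with LPS against 32, 24.5 and 25.4 in BHLHE40-Fl-labelled controls, 11.2-fold lower (limma adjusted p = 0.000483). Tgm1 ranged over 62.0 to 69.0 with LPS and 283 to 302 in controls, 4.38-fold lower. Cldn15 ranged over 6.1 to 9.4 with LPS and 35.6 to 58.4 in controls, 6.57-fold lower. These 3 genes and Pdpn were called under every alternative tried. Gas1 averaged 61.1 ± 15.2 with LPS against 239 ± 16.9 in controls (limma adjusted p = 0.00072). Lrrn4, Crb2, Krt7, Bnc1 and Igfbp5 had log2 changes between -1.63 and -1.19 and limma adjusted p-values from 0.0199 to 0.0457. All 5 calls were lost without BHLHE40-Fl-labelled control replicate 2, control replicate 3 or LPS replicate 2. Those of Bnc1 and Igfbp5 were lost without any 1 of the 6 BHLHE40-Fl-labelled libraries (limma adjusted p from 0.0639 to 0.134). Upk3b had a log2 change of -0.51 ± 0.31 (SE, limma adjusted p = 0.191), with 339, 419 and 574 with LPS against 495, 595 and 796 in controls, which overlapped. Krt19 (0.10), Tbx2 (0.14) and Mgp (0.12) had log2 changes near 0, with limma adjusted p-values of 0.9, 0.881 and 0.886. The libraries of 19 members lay wholly below their controls, where 28.9% of all tested genes did. The quasi-likelihood test of edgeR on recovered reads called 17 lower, adding Upk3b, Upk1b, Muc16, Gpm6a, Wt1, Igfbp6, Efemp1 and Lum.

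In Lyz2Cre cells most members had few or no reads under either treatment, and Pdpn, Dcn, Aldh1a2, Plxna4, Sulf1 and Lum were higher with LPS. Here 6 members were called higher and 4 lower, where 25.0% and 23.9% of all tested genes were, and with equal totals the counts were 4 higher and 4 lower. Without Lyz2Cre LPS replicate 1 or 3, 2 were called lower. Lum had 15.3, 27.6 and 23.3 with LPS and 3.8, 3.2 and 0 in Lyz2Cre controls, 9.46-fold higher from 46 and 9 reads (limma adjusted p = 1.74e-05). Aldh1a2 had 185, 159 and 137 with LPS and 48.5, 38.1 and 67.0 in controls, a log2 change of 1.65 ± 0.18 (SE, limma adjusted p = 5.01e-07). Dcn averaged 1124 ± 144 with LPS and 533 ± 8.24 in controls, a log2 change of 1.07 (limma adjusted p = 7.94e-09). Pdpn averaged 40898 ± 80.4 with LPS and 13258 ± 1065 in controls, a log2 change of 1.63 (limma adjusted p = 2.01e-11). Both were higher in each library with LPS than in any control. Sulf1 and Plxna4 rose by 1.26 and 0.77 on the log2 scale, calls that were lost with equal totals. Tgm1 was lower, at 29.7 ± 13.0 with LPS and 126 ± 19.2 in controls, and so was Gas1, at 1.47 ± 1.40 with LPS and 9.47 ± 3.04 in controls. Cldn15 and Crb2, the other genes called lower, rested on 1 and 0 reads with LPS against 10 reads each in controls. The call of Cldn15 was lost in 10 of the 12 fits without 1 library (limma adjusted p from 0.0534 to 0.218) and that of Crb2 in 5 (0.0581 to 0.167). Upk3b had no read in either treatment, so no change could be measured.

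**Figure D4:**
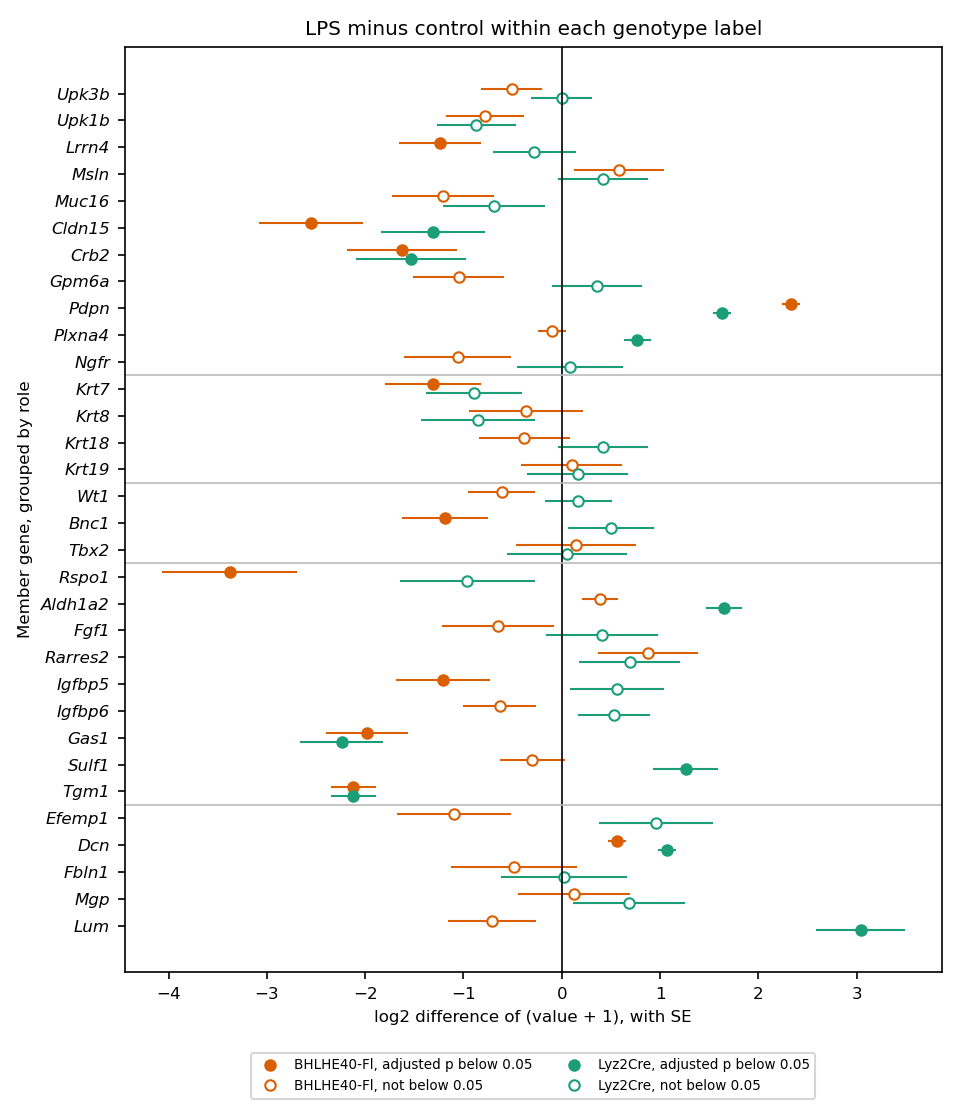
Change with LPS of each of the 32 genes within BHLHE40-Fl-labelled and within Lyz2Cre libraries, as log2 difference of (value + 1) with its SE (3 libraries per group). Tgm1 and Gas1 lie at or below -1.98 in both labels, Pdpn and Dcn lie above 0 in both, and Lum lies at -0.71 in BHLHE40-Fl-labelled and at 3.04 in Lyz2Cre libraries.

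The change with LPS itself differed between labels for 6 members, by the interaction term of the same limma fit. Of all tested genes 9.52% had a higher and 9.31% a lower change in BHLHE40-Fl-labelled cells. Of the members 1 was called higher and 5 lower, or 11 lower without Lyz2Cre LPS replicate 3. Pdpn had the higher change there, by 0.70 ± 0.12 (SE, limma adjusted p = 0.000382). Lum had the lower change by -3.76 ± 0.64 (SE, limma adjusted p = 0.000347), and it averaged 89.2 ± 16.0 with LPS and 145 ± 5.04 in controls of the BHLHE40-Fl label. Aldh1a2 differed by -1.27 ± 0.26 (SE, limma adjusted p = 0.0018), with 224, 269.9 and 247 with LPS and 175, 188 and 202 in BHLHE40-Fl-labelled controls. For Plxna4 the difference was -0.87 ± 0.20 (SE, limma adjusted p = 0.00485), and for Dcn -0.51 ± 0.12 (SE, limma adjusted p = 0.00643). That of Sulf1, -1.56 ± 0.47 (SE, limma adjusted p = 0.0269), was lost without any 1 of 6 libraries, with limma adjusted p-values from 0.0504 to 0.0703. Tgm1 changed by -2.12 in BHLHE40-Fl-labelled and by -2.12 in Lyz2Cre cells, a difference of 0.01 ± 0.33 (SE, limma adjusted p = 0.992).

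Other cell type markers were read beside these genes, since the samples are labelled as macrophages. General macrophage genes were abundant in all libraries, with sums over 14 genes of 320124 to 348487 in BHLHE40-Fl-labelled controls and 475103 to 522015 in Lyz2Cre controls. Of these 14, 1 was called higher and 10 lower in the BHLHE40-Fl-labelled controls, where 15.0% and 16.6% of all tested genes were. The same shares apply to the counts in controls given below for the other lists. Adgre1, which encodes F4/80, averaged 5635 ± 245 in BHLHE40-Fl-labelled and 30456 ± 725 in Lyz2Cre controls, and the receptor gene Csf1r 9366 ± 277 in BHLHE40-Fl-labelled and 19473 ± 664 in Lyz2Cre controls. Both were lower in the libraries in which the mesothelial genes were higher. Cd68 averaged 44204 ± 4262 in BHLHE40-Fl-labelled and 45308 ± 3487 in Lyz2Cre controls and was not called (limma adjusted p = 0.802), nor was Tyrobp. Lyz2, the gene of the Cre driver in both labels, averaged 170.2 ± 31.5 in BHLHE40-Fl-labelled and 766 ± 69.8 in Lyz2Cre controls. The part of the Cre allele in that value was not tested. The 10 genes of resident peritoneal macrophages went both ways, with 3 called higher and 4 lower in BHLHE40-Fl-labelled controls and a median log2 difference of -0.77. Their sums were higher, at 35155 to 36133 in BHLHE40-Fl-labelled and 18970 to 20969 in Lyz2Cre controls. Gata6 averaged 333 ± 39.9 in BHLHE40-Fl-labelled and 24.7 ± 9.06 in Lyz2Cre controls, 13.5-fold higher (limma adjusted p = 6.15e-10). Which cells this RNA came from cannot be told in bulk RNA, and a link to the levels of Wt1 or Aldh1a2 was not tested. Cxcl13, a B cell chemoattractant, averaged 57.9 ± 7.94 in BHLHE40-Fl-labelled and 219 ± 14.4 in Lyz2Cre controls and was called lower (limma adjusted p = 5.5e-06).

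Of 16 further mesothelial genes, 14 were tested, with 9 called higher and 3 lower in BHLHE40-Fl-labelled controls. Their sums were 5578 to 6181 in BHLHE40-Fl-labelled and 4468 to 4955 in Lyz2Cre controls, led by Ezr, which links the membrane to actin (2754 ± 86.2 in BHLHE40-Fl-labelled and 2828 ± 144 in Lyz2Cre controls). Pkhd1l1, a fibrocystin-like membrane protein, averaged 599.7 ± 49.5 in BHLHE40-Fl-labelled and 1.33 ± 1.67 in Lyz2Cre controls, and the junction protein Cxadr 654 ± 55.1 in BHLHE40-Fl-labelled and 5.77 ± 4.64 in Lyz2Cre controls. Nkain4 averaged 55.2 ± 23.5 in BHLHE40-Fl-labelled controls and was at 0 in each Lyz2Cre control. All 3 differed by more than the spread between libraries. Pkhd1l1 and Nkain4, however, passed the filter only through BHLHE40-Fl-labelled libraries. They thus had to differ, and their calls lend no support of their own. Ildr2 averaged 396 ± 70.9 in BHLHE40-Fl-labelled and 5.10 ± 2.56 in Lyz2Cre controls. Prg4, which encodes lubricin and is also a gene of resident macrophages, was called lower, at 1.73 ± 0.808 in BHLHE40-Fl-labelled and 43.7 ± 8.44 in Lyz2Cre controls. Cav1 and Tjp1, described at the end, were also called lower. Calb2 was at 0 in each BHLHE40-Fl-labelled control and averaged 0.567 ± 0.981 in Lyz2Cre controls, and Itln1 and Sbspon were at 0 in all 12 libraries. With LPS the sums of the 16 genes ran the other way, at 10190 to 10445 in BHLHE40-Fl-labelled and 15654 to 16198 in Lyz2Cre libraries. Fibroblast genes summed to 8768 to 11442 in BHLHE40-Fl-labelled controls and to 1890.2 to 2045 in Lyz2Cre controls, with 9 of 15 called higher and 2 lower. Pdgfra, a receptor of fibroblasts, averaged 1441 ± 152 in BHLHE40-Fl-labelled and 87.1 ± 20.4 in Lyz2Cre controls, and Col6a1 943 ± 131 in BHLHE40-Fl-labelled and 19.2 ± 6.01 in Lyz2Cre controls. Twist1, a mesenchymal transcription factor, averaged 41.6 ± 11.3 in BHLHE40-Fl-labelled and 1.87 ± 1.16 in Lyz2Cre controls, whereas Pi16 averaged 0.233 ± 0.404 in BHLHE40-Fl-labelled and 10.6 ± 4.39 in Lyz2Cre controls. Thy1 was also lower, at 16.8 ± 5.12 in BHLHE40-Fl-labelled and 34.2 ± 4.78 in Lyz2Cre controls. Pdgfrb was about equal, at 57.4 ± 2.55 in BHLHE40-Fl-labelled and 55.6 ± 2.61 in Lyz2Cre controls. With LPS the fibroblast sums were 9475 to 13669.8 in BHLHE40-Fl-labelled and 4337 to 5539 in Lyz2Cre libraries. Of the 15 genes, 8 were then called higher and 4 lower, where 17.7% and 19.8% of all tested genes were. Pdgfrb averaged 471 ± 88.1 in BHLHE40-Fl-labelled and 1132 ± 86.1 in Lyz2Cre libraries with LPS. Mural genes summed to 1434 to 2026 in BHLHE40-Fl-labelled and 317 to 386 in Lyz2Cre controls and had 3 of 6 called higher, with Des at 778 ± 149 in BHLHE40-Fl-labelled and 59.0 ± 15.8 in Lyz2Cre controls. Myh11, Rgs5 and Cspg4 of the mural list averaged 2.0, 1.03 and 12.1 in BHLHE40-Fl-labelled and 2.37, 1.1 and 10.5 in Lyz2Cre controls. Endothelial genes summed to 3327 to 3629 in BHLHE40-Fl-labelled and 911 to 1033 in Lyz2Cre controls and had 2 of 5 called higher, Vwf at 2665 ± 189.6 in BHLHE40-Fl-labelled and 654 ± 105 in Lyz2Cre controls and Kdr at 813 ± 48.2 in BHLHE40-Fl-labelled and 303 ± 87.1 in Lyz2Cre controls. The defining endothelial genes Cdh5, Emcn and Erg averaged 11.8, 0.267 and 0.233 in BHLHE40-Fl-labelled controls and 14.9, 0 and 0 in Lyz2Cre controls.

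Genes of other epithelia and of lymphoid or granulocytic cells were mostly low, and several were lower in BHLHE40-Fl-labelled controls. Krt14 was the 1 epithelial gene of 6 tested that was called higher, at 46.9 ± 11.9 in BHLHE40-Fl-labelled and 0.533 ± 0.924 in Lyz2Cre controls, while Epcam averaged 0 in BHLHE40-Fl-labelled and 0.267 in Lyz2Cre controls. No adipocyte gene passed the filter. T cell genes summed to 51.3 to 56.6 in BHLHE40-Fl-labelled controls and to 131 to 156 in Lyz2Cre controls, with 6 of 7 called lower, among them Cd3g at 0.767 ± 0.802 in BHLHE40-Fl-labelled and 31.2 ± 8.47 in Lyz2Cre controls. With LPS the T cell sums ran the other way, at 1013 to 1304 in BHLHE40-Fl-labelled and 410 to 476 in Lyz2Cre libraries. Of the 7 genes, 1 was then called higher and 6 lower, where 17.7% and 19.8% of all tested genes were. Mast cell genes had 2 of 6 called lower, Kit and Mcpt4, and B cell genes summed to 21.9 to 50.4 in BHLHE40-Fl-labelled and 51.5 to 70.4 in Lyz2Cre controls. The neutrophil sums were 95.7 to 132 in BHLHE40-Fl-labelled and 397 to 727 in Lyz2Cre controls, led by S100a8 at 57.3 ± 13.6 in BHLHE40-Fl-labelled and 573 ± 179 in Lyz2Cre controls, while Ly6g was at 0 in all 12 libraries. Of the 4 neutrophil genes tested, S100a8 and Camp were called lower and 2 higher, Cxcr2 at 22.0 ± 6.25 in BHLHE40-Fl-labelled and 1.63 ± 1.42 in Lyz2Cre controls and Ltf at 28.8 ± 5.97 in BHLHE40-Fl-labelled and 6.60 ± 4.35 in Lyz2Cre controls. The part of these other cell types in the levels of the 32 genes was not tested.

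**Figure D5:**
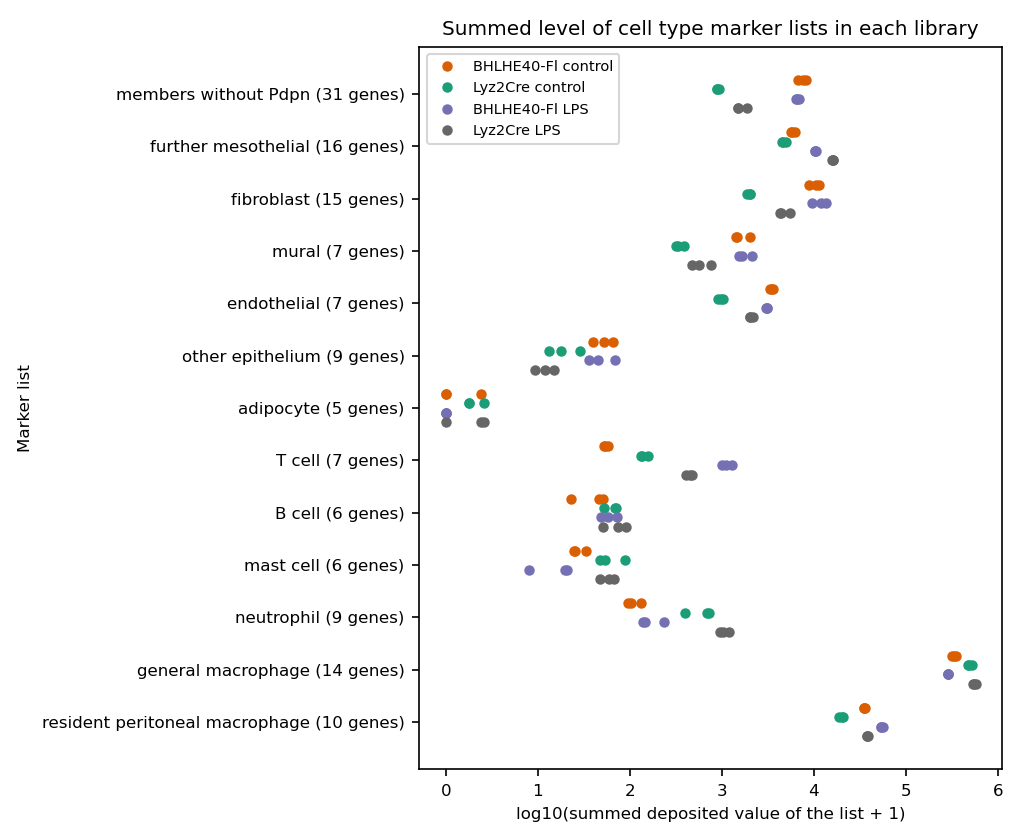
Summed deposited value of each marker list in each of the 12 libraries, as log10(sum + 1), with colours for the 4 groups. The mesothelial and stromal markers without Pdpn are higher in BHLHE40-Fl-labelled than in Lyz2Cre controls. So are the fibroblast, mural, endothelial and resident peritoneal macrophage lists, while the general macrophage, neutrophil, T cell and mast cell sums are lower there.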

How the data were processed

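RNA of peritoneal macrophages was isolated with a kit and sequenced after standard Illumina library preparation, per the labels' protocols. Processing notes of the submitters name STAR, Cufflinks and Cuffdiff and the build mm10, with no versions or roles. For the counter, annotation and strand setting the sources used here give nothing. The deposited values are a signal: from the numbers themselves, each is a whole read count over a library factor, kept to 1 decimal. Within a tolerance of 0.06, 100% of values in every library came out whole, giving 20489417 to 29354869 reads per library. Groups follow the labels for genotype and treatment (4 groups, 3 libraries each). Replicate pairs differed beyond sampling noise (chi-square per degree of freedom 7.35 to 72.2 over 12 pairs).

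A gene was tested if 3 or more libraries had a value of 1 or above (20419 of 53465). limma 3.58.1 (R 4.3.3, trend) was fitted to log2(value + 1) with a mean for each group, all 12 libraries sharing the variance, and p-values were Benjamini-Hochberg adjusted over all tested genes, with calls below 0.05. No rescaling was applied. Folds divide group means. Where a group had no reads, 3 reads over the group served as the floor, and with 1 to 3 reads a 95% interval was taken from the exact binomial split of both groups' reads; these cover counting error only. Alternatives tried were a pseudocount of 0.1 or 5, a filter at 5 or none, equal library totals, quantile normalization, only the compared groups, a replicate block, leaving out each library, and on recovered reads edgeR 4.0.16 (quasi-likelihood, TMM) and DESeq2 1.42.0. Between labels in controls, edgeR called 3016 genes higher and 3807 lower, where limma called 3060 and 3385.

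The 32 genes and the other marker lists were chosen with earlier results of these data known. All 32 are named, and within a role up to 6 with the largest control difference between labels have values per library. From other lists, up to 4 genes by that difference could be named, or 6 by level for macrophages, with Bhlhe40 and Lyz2. Ezr, Cav1, Tjp1, Calb2, Itln1, Sbspon, Thy1, Pdgfrb, Myh11, Rgs5, Cspg4, Emcn, Erg and Ly6g fall outside this and were chosen after their values were seen. Exon lengths and overlaps are from GENCODE M21 and promoter windows from RefSeq (GRCm38.p6).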

Additional observations from a re-analysis of the deposited data

Results flagged for a closer look

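The change with LPS differed between the genotype labels for 6 of the 32 genes, by the interaction term of the limma fit over all genes. Of all tested genes 18.8% were called there, about the same share as among the 32, so the count does not set these genes apart. The difference was 0.70 for Pdpn (limma adjusted p = 0.000382), which was higher with LPS under both labels, and by more under the BHLHE40-Fl label. It was -0.87 for Plxna4 (limma adjusted p = 0.00485), -1.27 for Aldh1a2 (limma adjusted p = 0.0018) and -1.56 for Sulf1 (limma adjusted p = 0.0269). For the proteoglycans Dcn and Lum it was -0.51 (limma adjusted p = 0.00643) and -3.76 (limma adjusted p = 0.000347). In Lyz2Cre cells these 5 genes were called higher with LPS.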

How the results depend on the processing

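Of the 32 calls between labels in controls, 30 were kept under every alternative (Rarres2 and Rspo1 were not), and with LPS 25 of 31. Of the calls with LPS against control, 4 of 11 were kept in BHLHE40-Fl-labelled and 6 of 10 in Lyz2Cre cells, and 5 of 6 of the interaction. Genes called lower between labels numbered 1 to 2 over the fits without 1 library, in controls and with LPS, and 1 with LPS under equal library totals or the 2 compared groups alone. With LPS in BHLHE40-Fl-labelled cells, 1 member was called higher under equal library totals. The number called lower, 9, was 3 with a pseudocount of 0.1, 15 with 5, 20 under equal library totals, 14 with the 2 compared groups alone, 17 by edgeR and 16 by DESeq2, and 4 to 12 over the fits without 1 library. In Lyz2Cre cells 4 were called lower, against 2 with a pseudocount of 5, no filter, the 2 compared groups alone or edgeR, and 2 to 4 over the fits without 1 library. The interaction had 5 lower, against 11 with a pseudocount of 5 and 8 under equal library totals, and 4 to 11 over the fits without 1 library. The cause was not tested. Dcn with LPS in BHLHE40-Fl-labelled cells turned to -0.06 under equal library totals, and Ctsd, a macrophage gene, turned to 0.07 between labels in controls under quantile normalization. Same-numbered libraries did not deviate together (correlations from -0.066 to 0.028 over 18 pairs, 5 of 18 highest with their own number). No pairing by number was thus seen, though a weak one could go unseen. With the replicate number as a block the member counts stayed within 1.5 times, at 30 higher and 2 lower in controls. Depth limits the genes near 0 in Lyz2Cre libraries, where 11 members had fewer than 4 reads over the 3 controls.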

Other observations

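Among Lyz2Cre libraries with LPS, replicate 2 was the highest of 3 for 17 of the 32 marker genes and the lowest for 0, whereas replicate 3 was the highest for 1 and the lowest for 12. Summed without Pdpn, the markers came to 1511, 1898 and 1490.2 in these libraries. The fibroblast list moved with them, at 4337, 5539 and 4355, and the mural list at 564, 771 and 479. Among BHLHE40-Fl-labelled controls, where replicate 1 was the lowest for 19 of the 32 genes, the fibroblast sums were 8768, 10514 and 11442. The part of the library in these values was not tested.

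Of the mesothelial genes outside the 32, Cav1, the main protein of caveolae, and Tjp1, which encodes the junction protein ZO-1, were called lower in BHLHE40-Fl-labelled than in Lyz2Cre libraries under both treatments. With LPS, Cav1 averaged 4519 ± 267 in BHLHE40-Fl-labelled and 9669 ± 276 in Lyz2Cre libraries. In controls it averaged 245 ± 29.6 in BHLHE40-Fl-labelled and 1354 ± 162 in Lyz2Cre libraries. Tjp1 ranged over 633 to 865 in BHLHE40-Fl-labelled and 2178 to 2361 in Lyz2Cre libraries with LPS, and over 178 to 217 in BHLHE40-Fl-labelled and 301.5 to 328 in Lyz2Cre controls. Both were called higher with LPS than in controls under each label, by log2 changes of 4.20 and 1.96 in BHLHE40-Fl-labelled and 2.84 for each gene in Lyz2Cre cells (limma adjusted p at most 3.55e-11), and so was Pdpn. These genes were chosen after their values were seen.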
